A study of Mus musculus with 6 samples.

Results

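OCT4 and NANOG ChIP-Seq regions were compared within 1 sorted population, Esrrb-GFP medium ESCs. A region was called co-bound when the same interval stood in the OCT4 list and in the NANOG list of that population, and OCT4 alone or NANOG alone when it stood in only 1 of them. The 14464 OCT4 regions and 4729 NANOG regions of Esrrb-GFP medium cells were 17198 distinct intervals, out of 23767 in the 6 lists of the series. Of these, 1995 were co-bound, 12469 were OCT4 alone and 2734 were NANOG alone. The co-bound regions were 42.2% of the NANOG regions and 13.8% of the OCT4 regions.

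The cells were mouse embryonic stem cells of the reporter line E-GFPd1 (Esrrb-2a-GFPd-IBIH in the labels), a clonal derivative of E14Tg2a in which a T2a peptide links destabilised GFP to endogenous *Esrrb*, so that GFP follows the expression of that gene. They were grown in medium with fetal calf serum and LIF, fixed with formaldehyde and then sorted for GFP. Esrrb-GFP medium was the 15% of the distribution just above the negative cells, Esrrb-GFP high was the top 10%, and Esrrb-GFP negative cells, without reporter signal, were the other sorted population. Chromatin came from several sorts and the material of several ChIPs was pooled into 1 library for each factor and population, with a goat polyclonal antibody (Santa Cruz SC-8628) for OCT4 and an in-house rabbit polyclonal antibody for NANOG. There was therefore no replicate, no spread between cultures could be given, and no p-value between groups of libraries was computed. Intervals after a share are 95% Wilson intervals and those after a difference are 95% Newcombe intervals. Both describe counting error alone, over the regions of a single library for each factor. The lists hold chromosome, start and end and no score or read number, so the depth of each library is unknown, and hold no transcript level with which the identity of the sorted cells could be checked here. The OCT4 and NANOG lists differ in antibody and possibly in depth as well as in factor, and these cannot be told apart.

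OCT4, encoded by *Pou5f1*, is a POU-domain factor that binds the octamer and, together with the HMG-box factor SOX2, a composite Oct-Sox element. NANOG is a homeodomain protein that stabilises self-renewal, and ESRRB is an orphan nuclear receptor that supports the naive state and is itself a NANOG target. Naive pluripotency is the state of the pre-implantation epiblast; primed pluripotency is that of the later epiblast, in which OCT4 and SOX2 are still made and ESRRB is not. Enhancers of pluripotency genes are typically bound by several of these factors within a short stretch of DNA. Intervals shared by OCT4 and NANOG are counted here as co-bound. The gaps given below are between separate intervals and describe how close regions of the groups lay to each other.

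As examples, 7 regions are printed below from mm9 (plus strand, 5′ to 3′). Whole regions are given up to 300 bp, and otherwise the stretch within 100 bp of the centre. The first 3 are co-bound regions of genes of the core network, including the distal upstream element of *Pou5f1*, the next 3 are OCT4 alone and the last is NANOG alone. Capitals mark matches to the octamer ATGCAAAT, to the Oct-Sox motif with up to 2 mismatches, and to the ESRRB motif TCAAGGTCA with up to 1 mismatch, on either strand.
*Pou5f1* upstream, co-bound, chr17:35640952-35641091: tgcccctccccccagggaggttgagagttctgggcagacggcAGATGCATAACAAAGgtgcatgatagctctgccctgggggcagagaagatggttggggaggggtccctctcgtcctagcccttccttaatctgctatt
*Esrrb* intron, co-bound, chr12:87811892-87812131: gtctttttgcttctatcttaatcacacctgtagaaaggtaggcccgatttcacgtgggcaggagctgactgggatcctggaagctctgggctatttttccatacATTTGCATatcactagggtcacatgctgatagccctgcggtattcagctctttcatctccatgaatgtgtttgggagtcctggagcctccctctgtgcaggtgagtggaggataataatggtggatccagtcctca
*Nanog* upstream, co-bound, chr6:122652622-122652822: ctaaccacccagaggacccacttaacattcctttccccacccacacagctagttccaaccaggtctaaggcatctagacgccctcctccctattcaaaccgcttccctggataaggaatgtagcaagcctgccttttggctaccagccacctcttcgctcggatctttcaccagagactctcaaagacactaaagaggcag
*Zfp42* upstream, OCT4 alone, chr8:44392412-44392612: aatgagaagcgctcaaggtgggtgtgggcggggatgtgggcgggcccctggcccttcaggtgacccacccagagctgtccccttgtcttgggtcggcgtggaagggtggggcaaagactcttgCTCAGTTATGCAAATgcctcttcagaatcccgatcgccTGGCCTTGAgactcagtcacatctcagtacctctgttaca
*Dppa3* upstream, OCT4 alone, chr6:122574452-122574731: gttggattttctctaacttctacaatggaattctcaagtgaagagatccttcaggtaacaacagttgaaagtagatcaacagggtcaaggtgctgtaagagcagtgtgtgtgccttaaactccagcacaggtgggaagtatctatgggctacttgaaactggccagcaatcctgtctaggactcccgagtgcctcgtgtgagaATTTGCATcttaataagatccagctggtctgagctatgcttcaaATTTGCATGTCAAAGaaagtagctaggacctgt
*Tcf7* upstream, OCT4 alone, chr11:52100012-52100111: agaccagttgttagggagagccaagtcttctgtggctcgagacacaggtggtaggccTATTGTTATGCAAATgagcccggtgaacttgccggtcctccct
*Tet1* intron, NANOG alone, chr10:62359652-62359851: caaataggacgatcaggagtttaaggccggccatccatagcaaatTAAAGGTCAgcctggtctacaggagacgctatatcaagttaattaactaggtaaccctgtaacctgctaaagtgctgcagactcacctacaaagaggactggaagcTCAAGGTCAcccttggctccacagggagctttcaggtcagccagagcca

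In the *Pou5f1* region the capitals are an Oct-Sox match, and in the *Esrrb* region an octamer. The *Nanog* region contains none of these letters in the stretch shown. The *Zfp42* region has an Oct-Sox match that includes an octamer, followed by an ESRRB match on the opposite strand, the *Dppa3* region has 2 octamers, 1 of them within an Oct-Sox match, and the *Tcf7* region has an Oct-Sox match that includes an octamer. The NANOG-alone region of *Tet1* has an exact ESRRB match and an inexact one, both on the plus strand. The regions of *Pou5f1*, *Dppa3*, *Tcf7* and *Tet1* were picked for their matches after the values had been seen. The printed regions are not typical of their groups. Oct-Sox matches stood at 8.89% of OCT4-alone regions and exact ESRRB matches at 2.82% of NANOG-alone regions. The *Tet1* region was also in both lists of high cells, as were 10.5% of NANOG-alone regions.

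Co-bound regions were wider than those of a single factor. Their median width was 180 bp (interquartile range 120 to 260 bp), against 80 bp for OCT4 alone (60 to 160 bp) and 80 bp for NANOG alone (60 to 140 bp). The narrowest width in the lists, 40 bp, was held by 0.702% of co-bound, 19.6% of OCT4-alone and 20.2% of NANOG-alone regions, and widths of 200 bp or more by 46.4%, 16.3% and 13.2%. The 1995 co-bound regions covered 421200 bp, the OCT4-alone regions 1457600 bp and the NANOG-alone regions 293260 bp. Among NANOG regions, the co-bound share rose from 6.47% (5.25 to 7.94) at widths of 40 to 60 bp to 54.3% (51.7 to 56.9) at 120 to 200 bp and 81.6% (77.7 to 84.9) at 320 bp and above. Among OCT4 regions it rose from 1.60% (1.30 to 1.98) through 18.9% (17.7 to 20.1) to 40.7% (37.6 to 44.0) over the same widths. A width here is that of the peaks of all datasets after merging, so a region called in more libraries could become wider. OCT4-alone regions held by 1 list had a median width of 60 bp and those held by 4 lists 180 bp, the same median as co-bound regions held by 4 lists. With fewer lists the groups differed. At 2 and 3 lists the medians were 80 and 100 bp for 4824 and 4948 OCT4-alone regions. For 5 and 159 co-bound regions they were 200 and 180 bp. Co-bound regions were not wider with more lists, with 180 bp at 5 lists and 120 bp at 6. At 4 lists NANOG-alone regions had a median of 140 bp.

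**Figure D1:**
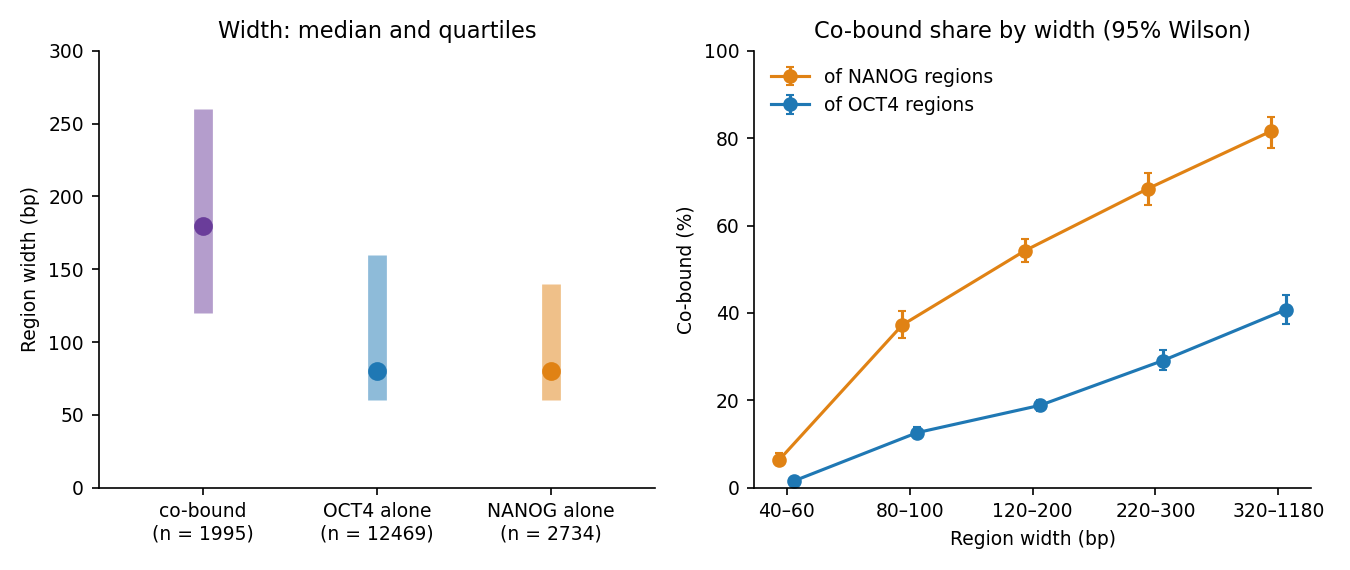
Left, width in bp of co-bound, OCT4-alone and NANOG-alone regions of Esrrb-GFP medium cells, with the median as a point and the quartiles as a bar. Right, co-bound share in percent of the NANOG regions and of the OCT4 regions in 5 ranges of width, with 95% Wilson intervals; it rose with width from 6.47% to 81.6% of NANOG regions and from 1.60% to 40.7% of OCT4 regions.

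Most regions of each group lay away from gene starts, and OCT4-alone regions were the ones found near a transcription start site (TSS) most often. The region centre was within 1 kb of an annotated TSS in 10.7% (10.2 to 11.3) of OCT4-alone regions, 6.32% (5.33 to 7.47) of co-bound regions and 5.96% (5.13 to 6.91) of NANOG-alone regions. Co-bound minus OCT4 alone was -4.41 percentage points (-5.55 to -3.14), whereas co-bound minus NANOG alone was 0.354 points with an interval from -1.02 to 1.77 that includes no difference. The median distance to the nearest TSS was 13989 bp for OCT4 alone, 17552 bp for co-bound and 18390 bp for NANOG-alone regions. Beyond 1 kb, introns held 35.1% (33.1 to 37.3) of co-bound, 34.8% (34.0 to 35.6) of OCT4-alone and 38.4% (36.6 to 40.2) of NANOG-alone regions. Exons held 1.75%, 2.502% and 2.08%, and the rest was intergenic, 56.8% (54.6 to 59.0), 52.0% (51.1 to 52.9) and 53.5% (51.7 to 55.4). Co-bound minus NANOG alone was -3.27 points (-6.03 to -0.481) for introns, whereas co-bound minus OCT4 alone was 0.348 points (-1.88 to 2.63), and the order of these latter groups turned when only introns of protein-coding genes were used (32.5% and 32.7%).

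The sequence around OCT4-alone regions also differed in base composition. Within 100 bp of the centre the median GC content was 49.3% for OCT4 alone, 47.8% for co-bound and 46.3% for NANOG alone, against 44.8%, 43.8% and 43.3% in windows 10 kb downstream. Windows with 10 or more CG dinucleotides, as in CpG islands, made up 3.48% of OCT4-alone regions (434 regions), 0.401% of co-bound (8) and 0.512% of NANOG-alone regions (14). Of the 1338 OCT4-alone regions near a TSS, 178 had such windows, 13.3%, compared with 3 of 126 co-bound and 8 of 163 NANOG-alone regions near a TSS.

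All 3 groups were sparse on chromosome X, and OCT4 alone most of all. Per Mb, OCT4-alone regions on X reached 0.246 of their autosomal density, co-bound regions 0.421 and NANOG-alone regions 0.523. Chromosome X held 1.63% (1.42 to 1.87) of OCT4-alone regions, 2.76% (2.12 to 3.57) of co-bound and 3.40% (2.78 to 4.15) of NANOG-alone regions. OCT4 alone minus NANOG alone was -1.77 points (-2.55 to -1.11). Chromosome Y held 2 OCT4-alone and 1 NANOG-alone region. The number of copies of chromosome X in the cells is not in the labels, and its part in these densities was not tested. Among the autosomes, the co-bound share of NANOG regions ran from 33.5% (27.4 to 40.2) on chromosome 14 to 48.5% (42.7 to 54.4) on chromosome 8. The density of OCT4-alone regions ran from 2.97 per Mb on chromosome 14 to 7.51 per Mb on chromosome 11, where co-bound regions (1.04 per Mb) and NANOG-alone regions (1.34 per Mb) were also densest.

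Spacing was measured as the gap between the edges of a region and the nearest region of another group. No 2 regions overlapped or touched, and the smallest gap was 20 bp, since overlapping peaks had been merged. An OCT4-alone region lay within 5 kb of 19.7% (18.3 to 21.2) of NANOG-alone regions, with a median gap of 44010 bp. At co-bound regions the share with an OCT4-alone region within 5 kb was 25.7% (23.8 to 27.7), with a median gap of 24980 bp, and the difference between co-bound and NANOG-alone regions was 6.00 points (3.58 to 8.44). OCT4-alone regions had another OCT4-alone region within 5 kb in 25.0% (24.3 to 25.8) of cases, a share close to that of co-bound regions. In the other direction, a NANOG-alone region lay within 5 kb of 5.18% (4.81 to 5.58) of OCT4-alone and 7.12% (6.07 to 8.33) of co-bound regions, a difference of 1.94 points (0.814 to 3.21). NANOG-alone regions had another NANOG-alone region within 5 kb in 7.75% (6.81 to 8.82) of cases. OCT4-alone regions were 72.5% of all medium regions, and the part of their number in these shares was not tested.

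At close range the pattern differed between groups. Within 100 bp, 4.35% (3.65 to 5.18) of NANOG-alone regions and 2.51% (1.91 to 3.29) of co-bound regions had an OCT4-alone region, while within 1 kb the shares were 10.4% (9.26 to 11.5) and 13.3% (11.9 to 14.9). OCT4-alone regions had another OCT4-alone region within 100 bp in 5.30% (4.92 to 5.71) of cases and within 1 kb in 14.0% (13.4 to 14.6). NANOG-alone regions that lay next to OCT4-alone regions on the chromosome formed 3741 neighbouring pairs. The gap was 20 bp in 47 of them, at most 100 bp in 121, at most 500 bp in 219 and at most 5 kb in 544. Each region of these pairs was called for 1 factor only, which does not show that the other factor was absent. Among 9182 neighbouring pairs of OCT4-alone regions the gap was at most 100 bp in 335. Among 531 neighbouring pairs of NANOG-alone regions it was at most 100 bp in 36. Co-bound regions lay within 500 bp of another co-bound region in 2.01% (1.48 to 2.72) of cases and within 1 kb in 4.16% (3.37 to 5.13).

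**Figure D2:**
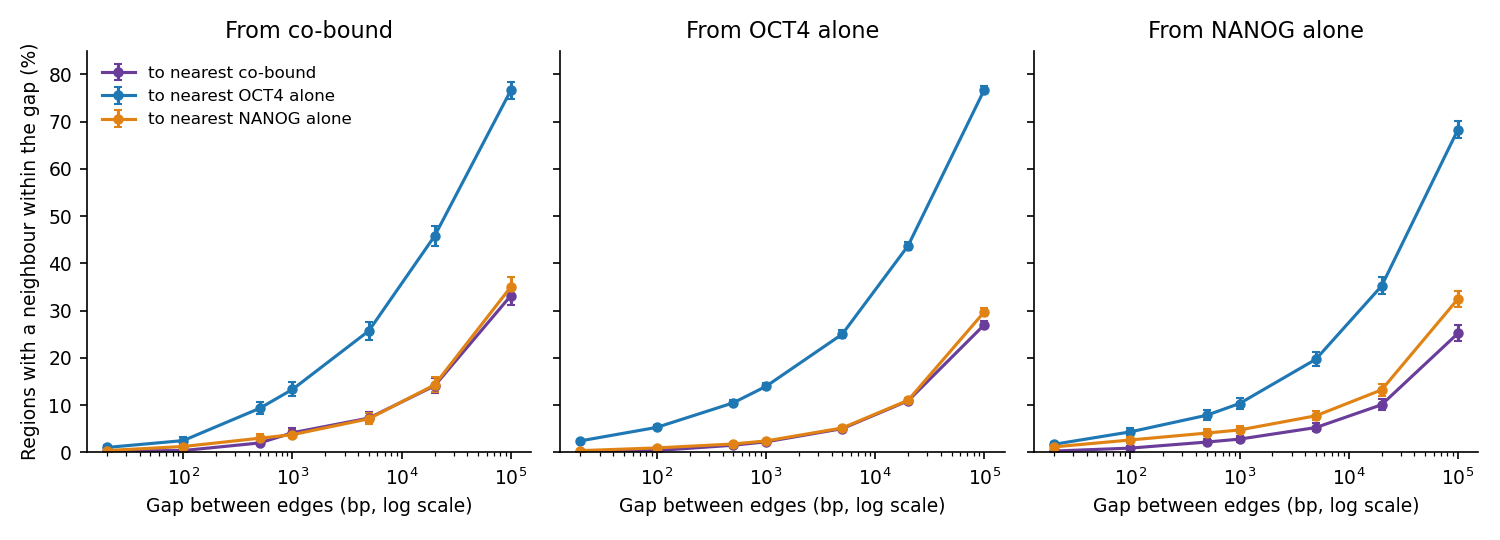
Share in percent of co-bound, OCT4-alone and NANOG-alone regions (left to right) that have a region of each group within a given gap in bp between edges (log scale), with 95% Wilson intervals. An OCT4-alone region lay within 5 kb of 25.7%, 25.0% and 19.7% of these regions, the highest share from every group. OCT4-alone regions were 72.5% of all medium regions.

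Considering only the single nearest medium region, 34.1% (32.0 to 36.2) of co-bound, 30.9% (30.1 to 31.7) of OCT4-alone and 28.1% (26.5 to 29.8) of NANOG-alone regions had one within 5 kb. For NANOG alone, 21.8% of these neighbours were again NANOG alone, compared with 12.4% for OCT4 alone and 16.5% for co-bound, and NANOG-alone regions are 15.9% of all medium regions. OCT4-alone regions were 66.9% of these neighbours for co-bound, 75.5% for OCT4 alone and 63.7% for NANOG alone. They are 72.5% of all medium regions. Compared with the other populations, the share of NANOG-alone regions with an OCT4-alone region within 5 kb was 14.5% (13.6 to 15.4) in Esrrb-GFP high, where OCT4-alone regions number 8774, and 15.1% (10.8 to 20.7) in Esrrb-GFP negative, where they number 10282.

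When regions within 5 kb of each other were chained, 11894 regions stood by themselves and 2288 chains held 2 or more. Of these chains, 1177 held OCT4-alone regions only, 70 NANOG-alone regions only, and 601 a co-bound region. In 440 chains both factors were present without any co-bound region, and 65 chains held all 3 groups. Only 17 chains held 6 or more regions. The longest series, 10 regions over 16120 bp (chr9:78207532-78223651), lay around *Dppa5a*, a marker of pluripotent cells, and held 2 co-bound and 8 OCT4-alone regions. The next, of 9 regions (chr1:138576932-138597411, 65693 bp from the start of *Zfp281*, a zinc-finger gene), held 6 OCT4-alone and 3 NANOG-alone regions and 0 co-bound. A chain of 6 regions beyond *Sox2* (chr3:34655432-34663771, 110674 bp from the gene's start to its middle) held 4 co-bound and 2 OCT4-alone regions, in the stretch known to contain the distal enhancer of *Sox2* in ESCs. A chain of 7 in and near *Epha4*, an ephrin receptor gene, held 2 co-bound, 3 OCT4-alone and 2 NANOG-alone regions. At *Hoxb6* a chain of 6 was made of OCT4-alone regions.

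The groups differed in how they were called in the other populations. Nearly all co-bound regions were in the NANOG list of Esrrb-GFP high cells, 96.8% (95.9 to 97.5), as were 94.0% (93.0 to 94.8) of NANOG-alone regions, a difference of 2.83 points (1.62 to 4.00). Among regions at least 100 bp wide these shares were 97.0% and 96.8%. The OCT4 list of Esrrb-GFP high held 88.1% (86.6 to 89.5) of co-bound but 64.4% (63.6 to 65.3) of OCT4-alone regions, a difference of 23.7 points (22.0 to 25.3). Among regions at least 100 bp wide the shares were closer, 89.0% and 73.8%. In Esrrb-GFP negative the order was the opposite: OCT4 was called at 49.1% (46.9 to 51.3) of co-bound and 56.9% (56.1 to 57.8) of OCT4-alone regions, a difference of -7.81 points (-10.2 to -5.45). NANOG was called in negative cells at 3.76% (3.01 to 4.69) of co-bound and 3.91% (3.25 to 4.71) of NANOG-alone regions. Within the other populations, co-bound regions were 39.0% of the NANOG and 29.5% of the OCT4 regions in high cells. In negative cells they were 30.4% and 0.839%. Of the co-bound regions, 1706 (85.5%) were co-bound in high cells too, 225 were NANOG alone there, 52 were OCT4 alone and 12 were in neither list. Of the OCT4-alone regions, 1382 (11.1%) were co-bound in high cells, 6652 had OCT4 alone and 200 NANOG alone there, and 4235 (34.0%) were in neither high list. Of the NANOG-alone regions, 287 (10.5%) were co-bound in high cells and 2282 (83.5%) were NANOG alone there. Called in medium cells and in no list of high or negative cells were 2029 OCT4-alone regions (16.3%), 144 NANOG-alone regions (5.27%) and 5 co-bound regions (0.251%). A region is missing from a list when it fell under a set fraction of its highest signal, so a missing region is not one without signal.

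**Figure D3:**
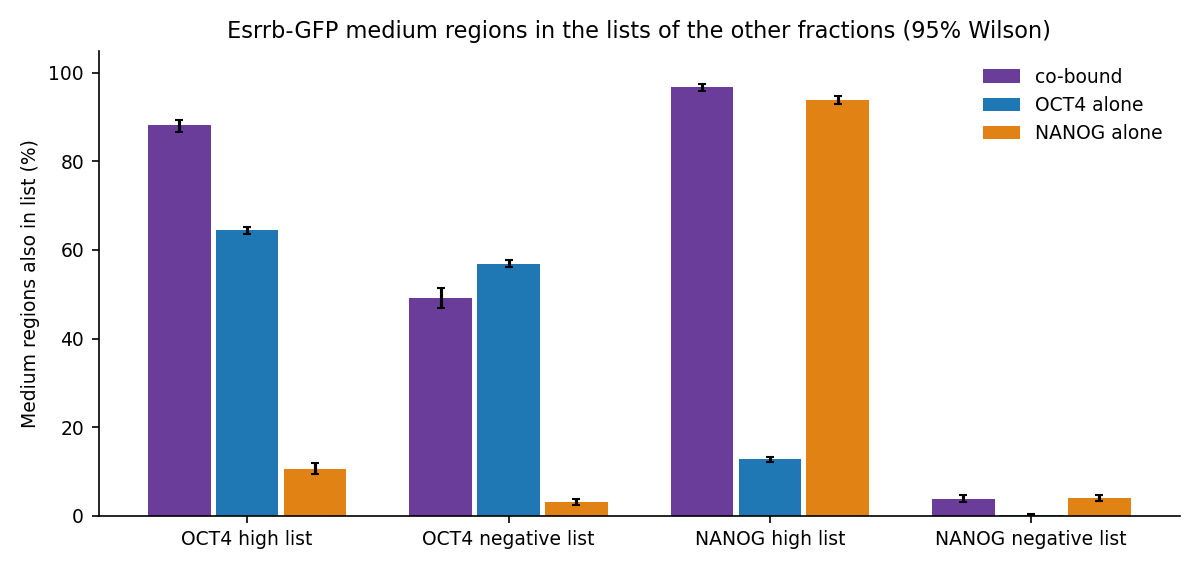
Share in percent of the co-bound, OCT4-alone and NANOG-alone regions of Esrrb-GFP medium cells that also stand in the OCT4 and NANOG lists of Esrrb-GFP high and negative cells, with 95% Wilson intervals. Co-bound regions reach 88.1% and 96.8% in the high lists, and OCT4-alone regions exceed them in the OCT4 negative list (56.9% against 49.1%).

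OCT4-alone regions near a TSS and away from it differed in the same lists. Within 1 kb of a TSS, 57.3% (54.7 to 59.9) were in the OCT4 list of high cells and 61.4% (58.8 to 64.0) in that of negative cells. Farther away, the shares were 65.3% (64.4 to 66.2) and 56.4% (55.5 to 57.3). NANOG was called in high cells at 5.68% (4.56 to 7.05) of OCT4-alone regions near a TSS and 13.5% (12.9 to 14.2) of the others.

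Motif content separated regions by the factor found there. An octamer or Oct-Sox match within 100 bp of the region centre was present at 16.4% (15.7 to 17.0) of OCT4-alone, 13.3% (11.9 to 14.9) of co-bound and 3.95% (3.28 to 4.75) of NANOG-alone regions. Windows of the same length 10 kb downstream had a match in 1.56% of cases over all groups, and the motifs with their letters in reversed order were found at 0.0882%, 0.0501% and 0.256% of the regions. NANOG-alone regions were 12.4 points (11.4 to 13.3) under OCT4-alone and 9.38 points (7.75 to 11.1) under co-bound regions. The octamer itself was found at 9.69% (9.18 to 10.2), 8.07% (6.95 to 9.35) and 2.89% (2.32 to 3.59) of OCT4-alone, co-bound and NANOG-alone regions, with 1.35% downstream. For the Oct-Sox motif, the shares were 8.89% (8.40 to 9.40), 7.22% (6.16 to 8.44) and 1.35% (0.983 to 1.86), with 0.279% downstream. With up to 2 mismatches allowed, an Oct-Sox match need not contain the exact octamer. Co-bound regions were thus below OCT4-alone regions for octamer or Oct-Sox, by -3.03 points (-4.59 to -1.34). Oct-Sox matches were central: of those within 240 bp of the centre, 78.7% (76.3 to 80.9) in OCT4-alone, 68.0% (60.8 to 74.4) in co-bound and 50% (37.7 to 62.3) in NANOG-alone regions lay within 60 bp of it. For the ZIC-type sequence CAGCAGG, bound by zinc-finger proteins of the ZIC family, the order was the opposite, with 35.6% (33.9 to 37.5), 44.0% (40.3 to 47.8) and 50.1% (46.9 to 53.2).

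Other motifs were more frequent where NANOG was found. The ESRRB motif was present at 17.4% (15.8 to 19.2) of co-bound and 17.5% (16.1 to 18.99) of NANOG-alone regions but at 9.30% (8.81 to 9.83) of OCT4-alone regions, with 7.08% in windows downstream. In reversed order its letters were found at 5.51% of co-bound, 4.72% of NANOG-alone and 5.96% of OCT4-alone regions. The difference of co-bound and NANOG-alone regions was -0.0765 points (-2.25 to 2.13), and that of co-bound and OCT4-alone regions was 8.14 points (6.46 to 9.94). The ZIC-type sequence was present at 21.4% (19.9 to 23.0) of NANOG-alone, 19.6% (17.9 to 21.4) of co-bound and 10.7% (10.2 to 11.3) of OCT4-alone regions, with 5.17% downstream. The SOX sequence ACAATG was found at 26.3% (24.7 to 28.0) of NANOG-alone, 22.8% (21.0 to 24.6) of co-bound and 13.4% (12.8 to 14.0) of OCT4-alone regions, with 11.2% downstream. TAATGG, a homeodomain sequence, stood at 13.9% (12.6 to 15.2) of NANOG-alone, 10.98% (9.68 to 12.4) of co-bound and 7.50% (7.05 to 7.97) of OCT4-alone regions, with 8.25% downstream, so that OCT4-alone regions were not above the downstream level. The KLF sequence GGGNGTGG differed little, with 12.3% (10.96 to 13.8) of co-bound, 12.8% (12.2 to 13.3) of OCT4-alone and 10.7% (9.58 to 11.9) of NANOG-alone regions, and 6.11% downstream. The same letters in reversed order were found at 9.22%, 10.3% and 6.29% of these regions, closer to the KLF shares than the windows downstream. For CTCF, which organises chromatin loops, the shares were 11.7% (10.4 to 13.2), 8.34% (7.87 to 8.84) and 10.7% (9.58 to 11.9), with 4.98% downstream. The STAT sequence TTCCNGGAA was rare in the 3 groups, from 0.622% to 0.842%, and 0.535% downstream. TFCP2L1 matches stood at 2.86%, 2.45% and 3.18% of co-bound, OCT4-alone and NANOG-alone regions (1.42% downstream), the OTX2 sequence GGATTA at 10.3%, 7.85% and 8.16% (8.71%), and the E-box CACGTG at 1.50%, 2.86% and 1.17% (2.57%).

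In NANOG-alone regions, ESRRB matches beside the centre were found more often in 1 orientation. Of matches 30 to 90 bp from the centre, 234 read TCAAGGTCA away from the centre and 126 towards it, 65.0% away (59.9 to 69.7). In the windows downstream the counts were 61 and 68, 47.3% away (38.9 to 55.9). The KLF sequence showed the same kind of asymmetry in NANOG-alone regions, with 160 matches away and 76 towards, 67.8% (61.6 to 73.4), and 47.5% (38.7 to 56.4) downstream. In co-bound regions the shares were 54.9% (49.0 to 60.7) for ESRRB and 59.4% (52.5 to 65.9) for KLF, and in OCT4-alone regions 55.9% (52.5 to 59.3) and 56.8% (53.9 to 59.6). Downstream of co-bound regions they were 55.1% (45.2 to 64.6) for ESRRB and 54.9% (44.1 to 65.2) for KLF. Downstream of OCT4-alone regions they were 53.5% (49.5 to 57.4) and 49.4% (45.1 to 53.6), so that the ESRRB shares of both groups were near their downstream level. The octamer read away in 61.9% (57.8 to 65.8) of its matches at this distance in OCT4-alone regions and 62.4% (52.2 to 71.5) in co-bound regions. Downstream these shares were 54.3% (45.3 to 63.1) and 50% (23.7 to 76.3). Matches to the Oct-Sox motif stood at 49.2% (44.3 to 54.2) and 46.9% (35.2 to 58.9). Matches in NANOG-alone regions read towards the centre more often for TFCP2L1, with 19 matches away and 41 towards, 31.7% away (21.3 to 44.2), CTCF, with 38.6% (31.9 to 45.8), and the ZIC-type sequence, with 44.3% (39.3 to 49.4) and 40.9% (29.9 to 53.0) downstream. For TFCP2L1 and CTCF the downstream shares were 42.9% (26.5 to 60.9) and 54.1% (43.6 to 64.3). Intervals that include an equal share were found in NANOG-alone regions for the SOX sequence, 50.4% (45.9 to 55.0), and TAATGG, 51.5% (45.1 to 57.9). The distances and this measure were chosen after the positions had been seen.

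**Figure D4:**
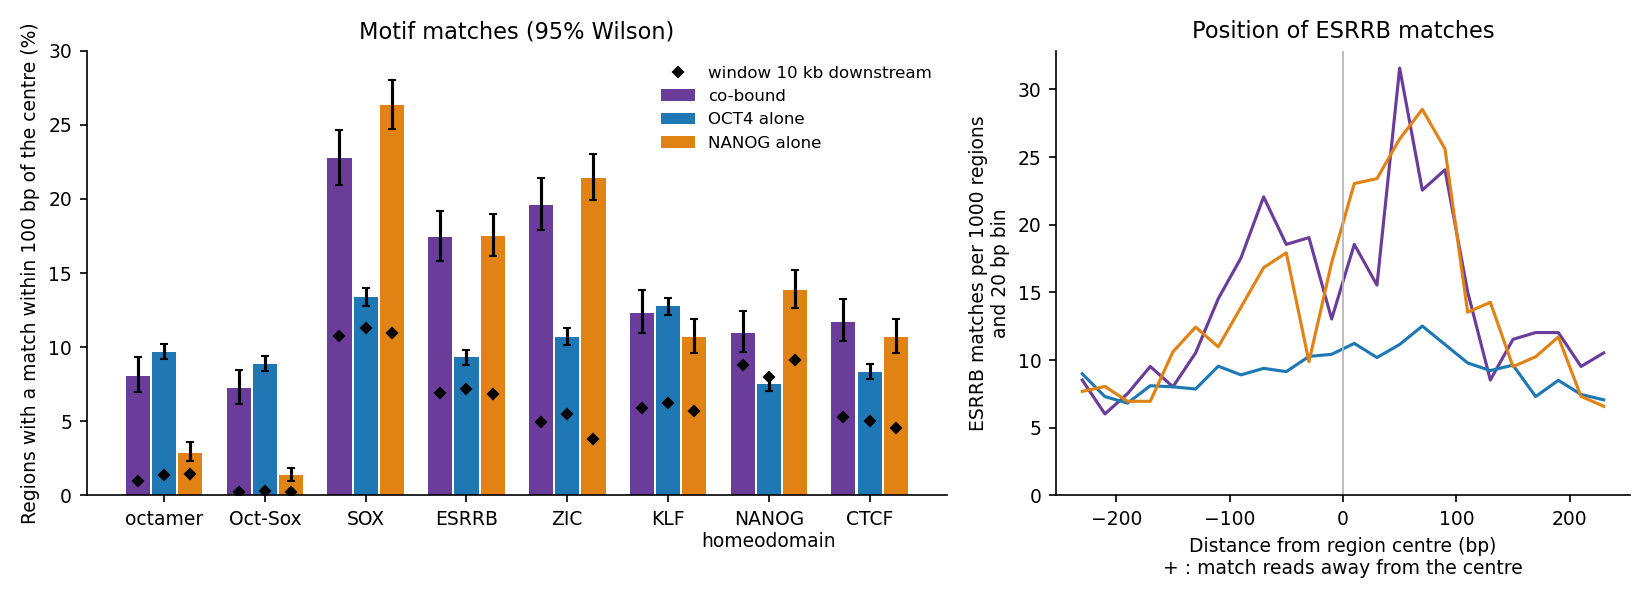
Left, share in percent of co-bound, OCT4-alone and NANOG-alone regions with a motif match within 100 bp of the centre, with 95% Wilson intervals; diamonds give the share in windows 10 kb downstream. Right, ESRRB matches per 1000 regions and 20 bp bin against distance from the centre in bp, positive where the match reads away from the centre; NANOG-alone matches are higher on that side (234 against 126 at 30 to 90 bp).

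The motif present went with the calling of OCT4 in the negative population. Of the OCT4-alone regions with an octamer or Oct-Sox match and no ESRRB match, 71.3% (69.2 to 73.3, 1347 of 1890) were in the OCT4 list of Esrrb-GFP negative cells. With an ESRRB match and no octamer or Oct-Sox match the share was 41.6% (38.6 to 44.7, 420 of 1010), a difference of 29.7 points (25.98 to 33.3). With neither it was 55.7% (54.7 to 56.7). Co-bound regions showed 65.5% (59.2 to 71.3), 36.6% (31.5 to 42.0) and 49.1% (46.5 to 51.7), a difference of 28.9 points (20.6 to 36.7) between the first 2. In the OCT4 list of high cells the difference was smaller, 6.87 points (1.78 to 11.7) at co-bound and 3.35 points (-0.162 to 6.93) at OCT4-alone regions. The opposite order was seen for NANOG in high cells at OCT4-alone regions, with 10.1% for octamer or Oct-Sox and 22.0% for ESRRB, a difference of -11.9 points (-14.9 to -9.09). Limited to regions at least 100 bp wide, the OCT4 negative difference was 33.7 points (28.7 to 38.5) for OCT4 alone and 27.7 points (18.9 to 35.9) for co-bound regions. Over 1 kb from a TSS it was 30.0 points in both groups (26.1 to 33.8 and 21.5 to 37.9). NANOG-alone regions with an octamer or Oct-Sox match were few, 94 without an ESRRB match, and 24.5% (16.9 to 34.0) of them were in the OCT4 list of high cells, against 9.46% (7.12 to 12.5) of 465 with an ESRRB match, a difference of 15.0 points (6.86 to 24.9). At least 100 bp wide, these were 51.3% (36.2 to 66.1) of 39 and 16.2% (12.1 to 21.5) of 234 regions, a difference of 35.0 points (19.1 to 50.5).

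Of 22380 protein-coding genes, 6.91% had a co-bound region within 20 kb of the gene body (1546 genes), 33.6% an OCT4-alone region (7528) and 9.31% a NANOG-alone region (2084), and 39.8% had any of them. Genes within reach of a co-bound region often had other regions too: 705 also had OCT4-alone regions, 92 NANOG-alone regions and 270 both, while 479 had co-bound regions only. A further 911 genes had OCT4-alone and NANOG-alone regions without a co-bound one. Longer genes collect more regions, and the median gene length was 37206 bp for genes with a co-bound region, 89561 bp for those with all 3 groups and 10951 bp for those with none. A protein-coding gene lay within 20 kb of 63.8% (61.7 to 65.9) of co-bound, 68.6% (67.8 to 69.4) of OCT4-alone and 65.3% (63.4 to 67.0) of NANOG-alone regions.

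The 3 genes of the core factors each had co-bound and OCT4-alone regions. *Pou5f1* (ENSMUSG00000024406, plus strand of chromosome 17, 35642982 to 35647721) had 2 co-bound and 3 OCT4-alone regions, all upstream. The co-bound regions, chr17:35640952-35641091 and chr17:35641692-35642431, were centred 1960 bp and 920 bp upstream of the gene's start, and an OCT4-alone region of 60 bp lay between them (chr17:35641592-35641651). Both co-bound regions were also in the OCT4 and NANOG lists of high cells and in the OCT4 list of negative cells. These lists held 88.1%, 96.8% and 49.1% of all co-bound regions. *Sox2* (ENSMUSG00000074637, chromosome 3, 34548927 to 34551383) had 2 co-bound, 4 OCT4-alone and 1 NANOG-alone region. Its 4 OCT4-alone regions, all downstream, were in the OCT4 list of negative cells and 3 of them in that of high cells, whereas the NANOG-alone region (chr3:34564292-34564351, 15395 bp from the start) was in no other list. The OCT4 lists of negative and high cells held 56.9% and 64.4% of all OCT4-alone regions, and 5.27% of NANOG-alone regions were in no other list. *Nanog* (ENSMUSG00000012396, chromosome 6, 122657507 to 122664651) had 1 co-bound region, chr6:122652512-122652931, 4785 bp upstream of its start, where an enhancer is known. It was in the NANOG list of high cells and in neither OCT4 list outside medium. Close to it lay an OCT4-alone region, chr6:122653112-122653411, and at the start of the gene another, chr6:122657412-122657831, which was also in both negative lists. That was so for 0.136% of all OCT4-alone regions.

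Among 17 naive pluripotency genes in the annotation, 15 (88.2%, against 33.6% of all protein-coding genes) had an OCT4-alone region within 20 kb, 7 (41.2%, against 9.31%) a NANOG-alone region and 6 (35.3%, against 6.91%) a co-bound region, and *Nr0b1* and *Stat3* had none. The median length of these genes was 13707 bp. *Esrrb* (ENSMUSG00000021255, chromosome 12, 87702067 to 87862578), whose product marks the sorted populations, had the most co-bound regions of the list, 4, with 2 OCT4-alone and 2 NANOG-alone regions. They lay from 105245 to 147515 bp downstream of the annotated gene start, within the gene, 7 of them in introns. The 4 co-bound regions were in both high lists, and 1 of them, chr12:87839812-87840111, was in the OCT4 list of negative cells. *Klf2* and *Mycn*, which encode a Krüppel-like factor and a MYC-family factor, had 2 co-bound regions each, and *Tbx3*, *Prdm14* and *Sall4* had 1 each. All 11 co-bound regions of the list were in the OCT4 and NANOG lists of high cells, 5 in the OCT4 list of negative cells and 0 in the NANOG list of negative cells. Over all co-bound regions the shares in these lists were 88.1%, 96.8%, 49.1% and 3.76%, so that these counts were near those of the whole group. Of the 42 OCT4-alone regions, 26 were in the OCT4 list of high cells and 15 in that of negative cells, where the shares of all OCT4-alone regions were 64.4% and 56.9%.

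**Figure D5:**
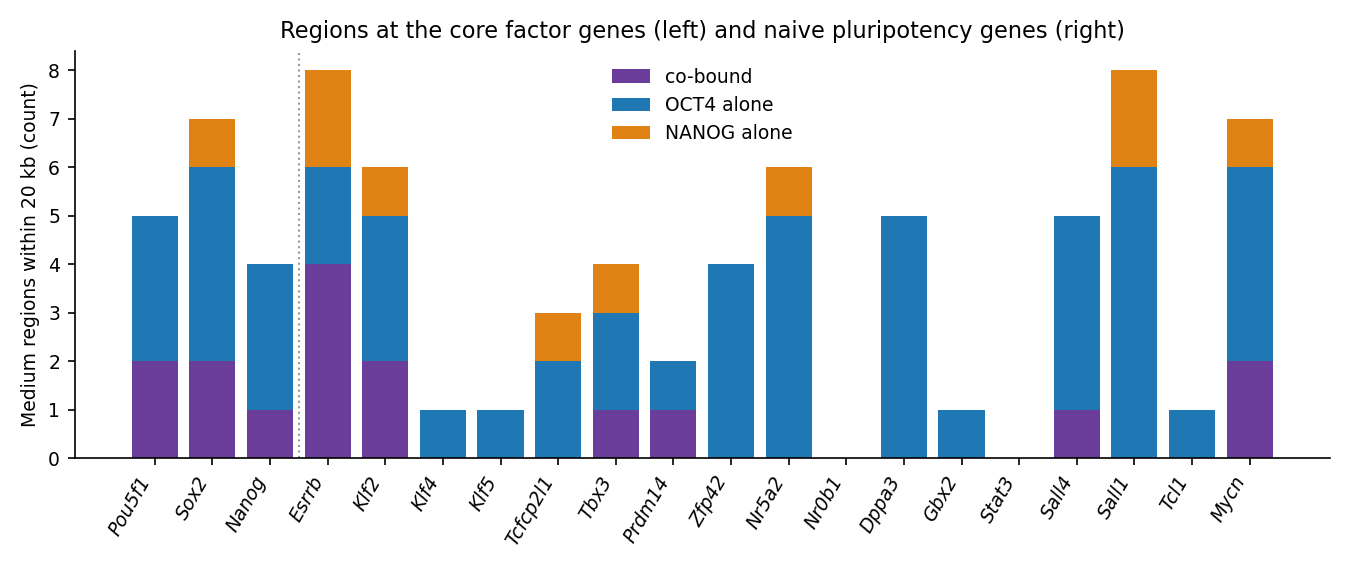
Number of co-bound, OCT4-alone and NANOG-alone regions of Esrrb-GFP medium cells within 20 kb of each core factor gene (left of the dotted line) and naive pluripotency gene (right), stacked. *Esrrb* has 4 co-bound regions, and *Zfp42* and *Dppa3* have OCT4-alone regions only.

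Several naive genes had OCT4-alone regions within 20 kb without a co-bound one. *Zfp42*, which encodes the naive marker REX1, had 4, one of them 149 bp upstream of its start (chr8:44392352-44392671), and none of the 4 was in the OCT4 list of negative cells. *Dppa3*, which encodes STELLA, had 5, all in the OCT4 list of high cells and 2 in that of negative cells. The OCT4 lists of high and negative cells held 64.4% and 56.9% of all OCT4-alone regions. *Sall1*, a zinc-finger gene, had 6 OCT4-alone and 2 NANOG-alone regions, and *Nr5a2*, a nuclear receptor gene, 5 and 1. *Tcfcp2l1* had 2 OCT4-alone and 1 NANOG-alone region. *Klf4*, *Klf5*, *Gbx2* and *Tcl1* had 1 OCT4-alone region each. Within 50 kb, *Klf4* and *Klf5* had 1 co-bound region each and *Sall1* had 2. *Zfp42*, *Dppa3*, *Nr5a2*, *Tcfcp2l1*, *Gbx2* and *Tcl1* had none at that distance.

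Of the other lists, those of DNA methylation and chromatin had co-bound regions most often, at 8 of 16 genes, and OCT4-alone regions at 12. For this and the following lists, the shares of all protein-coding genes were 6.91% with a co-bound and 33.6% with an OCT4-alone region. The de novo methyltransferase gene *Dnmt3b* had 3 co-bound regions upstream of its start, from 6164 to 9884 bp away, *Phc1* and *Jarid2*, genes of Polycomb components, had 3 each, and *Tet2* and *Tet3* had 2 each. *Tet1*, encoding an enzyme that oxidises 5-methylcytosine, had 8 OCT4-alone and 1 NANOG-alone region and 0 co-bound. The median length of these genes was 44800 bp. Of 16 formative and primed genes, 7 had co-bound and 12 OCT4-alone regions; *Etv5*, an ETS-factor gene, and *Dnmt3b* had 3 co-bound regions each. The 10 genes of the LIF and STAT3 pathway had co-bound regions at 4, among them the receptor gene *Lifr* with 2 and the feedback inhibitor gene *Socs3* with 3. The 3 *Socs3* regions were all in the NANOG list of high cells, 1 of them in the OCT4 list of high cells and 0 in the OCT4 list of negative cells. Over all co-bound regions the shares in these lists were 96.8%, 88.1% and 49.1%.

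For FGF and ERK signalling, which drives exit from the naive state, 11 of 12 genes (91.7%, against 33.6% of all protein-coding genes) had OCT4-alone regions and 3 had co-bound ones. The receptor gene *Fgfr2*, which this annotation draws over a far longer stretch than the other genes of the list (chromosome 7, 137305965 to 140315033), had 26 OCT4-alone, 3 co-bound and 3 NANOG-alone regions, and 19 of the 26 were in the OCT4 list of negative cells, which held 56.9% of all OCT4-alone regions. These regions lay from 8221 to 2945951 bp from the annotated start. Whether the whole stretch belongs to this gene was not tested, so the counts describe the stretch as drawn. Among 14 Nodal and BMP genes, 5 had a co-bound and 7 an OCT4-alone region, with 1 co-bound region each at *Nodal*, *Lefty1*, *Lefty2* and *Smad7*, the ligand, its antagonists and an inhibitory SMAD, and at *Id3*. In the Wnt pathway, 4 of 10 genes had co-bound regions, with 2 at *Tcf7l1*, which encodes a repressor of Wnt targets in ESCs. Of 15 germ layer genes, 8 had OCT4-alone, 3 co-bound and 0 NANOG-alone regions, against 33.6%, 6.91% and 9.31% of all protein-coding genes. *Pax6* had 6 OCT4-alone and 1 co-bound region, and *Cdx2* and *Pax3* had 3 and 1 each. At 10 housekeeping genes, 4 had an OCT4-alone, 1 a NANOG-alone and 1, *Gapdh*, a co-bound region. The share with a co-bound region thus ran from 10.0% in the housekeeping list to 50% in the chromatin list and 100% of the 3 core factor genes, against the 6.91% of all protein-coding genes. Gene length differed between the lists, with medians of 4740 bp for the core factor genes, 6639 bp for the housekeeping genes and 44800 bp for the chromatin genes, and its part in these shares was not tested.

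Over the genome, the genes with most co-bound regions within 20 kb were *Tgif1* and *Dlgap1* with 5 each. *Tgif1*, which encodes a homeodomain repressor of TGF-beta signalling, had 3 of its co-bound regions upstream, from 11856 to 18716 bp. All 5 were in both high lists, as were 85.5% of all co-bound regions. *Dlgap1* lies next to *Tgif1* and the distance reached part of the same regions. *Commd7*, *Pla2g10*, *Esrrb* and *Etl4* had 4 co-bound regions, and *Ctif*, *Dnmt3b* and *Phc1* were among those with 3. *Commd7* neighbours *Dnmt3b* and shares regions with it. Of these genes *Etl4* was the longest, at 900934 bp, and had 17 OCT4-alone and 3 NANOG-alone regions as well.

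Of the 5642 genes with OCT4-alone regions only, 6 with most of them were *Ebf1*, *Hoxb5* and *Meis2* with 11 each, and *Hoxb6*, *Hoxd11* and *Pax7* with 10. These 6 genes encode transcription factors of lineage specification or patterning, and *Hoxb5* and *Hoxb6*, neighbours in a cluster, share regions. Of the 11 regions of *Ebf1*, 9 were in the OCT4 list of high cells and 9 in that of negative cells. For *Meis2* the counts were 6 and 8, for *Hoxb5* 6 and 7, and for *Pax7* 3 and 6 of 10. Over all OCT4-alone regions the shares in these lists were 64.4% and 56.9%. NANOG was called in high cells at 2 of the *Ebf1* regions, 1 of the *Hoxd11* regions and at 0 of those of *Meis2*, *Hoxb5* and *Pax7*, against 12.7% of all OCT4-alone regions. Genes with most NANOG-alone regions and no OCT4 region were *Dock4* and *Zfp1* with 4 each, and *Adk*, *Cox4i2*, *Dock9* and *Snx10* with 3. *Dock4* and *Dock9* encode exchange factors of small GTPases, *Adk* adenosine kinase, *Cox4i2* a subunit of cytochrome oxidase and *Snx10* a sorting nexin. All regions of these 6 genes were in the NANOG list of high cells and 0 in the OCT4 list of negative cells, near the 94.0% and 2.999% of all NANOG-alone regions. OCT4 was called in high cells at 2 of the *Zfp1* regions, 1 of the *Dock4* and 1 of the *Adk* regions, against 10.6% of all NANOG-alone regions.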

How the data were processed

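OCT4 and NANOG ChIP-Seq lists of Esrrb-GFP medium E-GFPd1 cells were compared, 1 library for each factor, with the lists of high and negative cells beside them. Per the labels the authors aligned reads with Bowtie (version not given in the sources used here) to mm9. GeneProf served for the processing and SISSRs for peak calling. The authors then joined peaks that overlapped between datasets and dropped a region from a population that retained too little of its highest depth-normalised signal. The deposited lists are intervals without scores, so read depth is unknown. Samples were grouped by the antibody and sorted fraction in their labels.

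Region positions were counted from 1. Genes and TSS were those of GENCODE vM1 for mm9 (22380 protein-coding genes of 37310 in all). Region classes took the order TSS within 1 kb, exon, intron, intergenic. Motifs were scanned within 100 bp of the region centre on both strands, with reversed motifs and windows 10 kb downstream as controls. The Oct-Sox motif was allowed 2 mismatches, CTCF 2, ESRRB 1 and TFCP2L1 1. The members and lists were chosen with earlier results of these data known. Of 125 list entries, 2 (*Tfe3*, *Sox1*) were not matched to a protein-coding gene.

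Named were all core and naive genes with a region within 20 kb, up to 4 members of each other list with most co-bound regions, and the genes with most co-bound (10), OCT4-alone without NANOG (6) and NANOG-alone without OCT4 regions (6), and further genes were added after their values were seen. A gene chosen by this rule and a sequence are not reported here. Sequences were read for the co-bound region closest to the TSS of each core and naive gene and for 2 OCT4-alone and 2 NANOG-alone regions, outside exons, and a part of them is printed. Alternatives were other overlaps, merging, widths, distances, gene sets and windows. Distance to the gene start, 3 mismatches, and regions over 1 kb from a TSS were added after seeing the data. Python 3.11.15, numpy 2.4.6, scipy 1.17.1, pysam 0.24.0, samtools 1.23.1 and matplotlib 3.10.9 were used. The code was tested on simulated data, and 10 of 10 known quantities were recovered.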

Additional observations from a re-analysis of the deposited data

How the results depend on the processing

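No paired analysis was possible because no group has a second library. Of 118 alternative values, 60 stayed within the interval of the main value (within 1.5 times for counts) and 58 moved. Using an overlap of at least 1 bp could change no value, since no regions overlapped or touched. Those values are among the 60 and show nothing about stability. Keeping, in each list, regions of its median width or wider left 6156 OCT4-alone and 918 NANOG-alone regions. The co-bound share of NANOG regions rose with it from 42.2% (40.8 to 43.6) to 62.9%. Merging within 100 bp or 500 bp gave shares of 45.2% and 47.5%. Shares near a TSS, for co-bound, OCT4 alone and NANOG alone in this order, were 4.81%, 8.80% and 4.39% with protein-coding TSS and 22.6%, 28.6% and 22.4% within 5 kb, and 5.02% for NANOG alone at widths of at least 100 bp. Introns of protein-coding genes held 32.5% of co-bound and 32.7% of OCT4-alone regions, whose order in introns turned in both alternatives. The other factor lay within 1 kb of 2.43% of OCT4-alone and 10.4% of NANOG-alone regions, and within 20 kb of 11.04% and 35.2%. Genes with a region numbered 927, 4710 and 1309 within 5 kb, 2652 (co-bound) and 3416 (NANOG alone) within 50 kb, and 871 and 1170 within 20 kb of the gene start. For octamer or Oct-Sox the shares were 8.82%, 12.3% and 2.27% within 50 bp of the centre, 16.8%, 19.8% and 6.69% within 250 bp, 8.72%, 10.4% and 2.96% with 1 mismatch, 30.8%, 32.0% and 11.9% with 3, and 17.1% for OCT4 alone at widths of at least 100 bp. The order of the groups was the same in all 6 alternatives. For ESRRB they were 7.92%, 4.56% and 7.90% within 50 bp, 29.0%, 19.2% and 28.8% within 250 bp, 2.21%, 1.11% and 2.82% for exact matches, and 10.7% for OCT4 alone and 20.3% for NANOG alone at widths of at least 100 bp; OCT4 alone was lowest in all 5, while the order of co-bound and NANOG alone was kept in 3 of 5. At that width the lists held, of OCT4-alone regions, 73.8% (OCT4 high), 23.5% (NANOG high), 58.0% (OCT4 negative) and 0.286% (NANOG negative), of NANOG-alone regions 20.9%, 96.8%, 5.11% and 3.23% in the order OCT4 high, NANOG high, OCT4 negative and NANOG negative, and of co-bound regions 2.89% in NANOG negative. The values by distance, window and mismatch differ by the construction of the alternative; the cause of the changes with width was not tested.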
